A study of Mus musculus with 4 samples.

Results

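Mafa-negative, marker-positive beta cells were islet beta cells in which no Mafa transcript was counted and at least 1 transcript of Gc, Aldh1a3 or Serpina7 was. The members were thus chosen by measured values, which are given below as a description. A transcript count here is a UMI (unique molecular identifier) count from droplet-based 3′ single-cell RNA-seq. A beta cell was a barcode with 3000 to 50000 UMIs, 2000 to 5000 detected genes, under 10% mitochondrial UMIs, at least 5% of UMIs from Ins1 and Ins2, and under 1% each from Gcg, Sst and Ppy. Of 22218 barcodes in 4 libraries, 8088 were beta cells and 436 of these were Mafa-negative and marker-positive. They numbered 50 in Pax4 WT SCD, 36 in Pax4 HH SCD, 38 in Pax4 WT HFD and 312 in Pax4 HH HFD, so that 71.6% came from 1 library. They were described against the beta cells of the same library that held Mafa and none of the 3 markers, called reference cells below, of which there were 1032, 1000, 351 and 511.

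The study asked what an arginine-to-histidine knock-in in the endogenous Pax4 allele does to islets under a standard chow diet (SCD) and a high-fat diet (HFD). Pax4 WT mice were wildtype, and Pax4 HH mice were homozygous for the germline knock-in, which every cell of the animal carried. All mice were male and of C57BL6/N background. SCD mice were 12 weeks old, and HFD mice were 16 weeks old after 4 weeks of HFD, so diet and age cannot be told apart. Each group was 1 library of islets pooled from 2 to 3 mice, which leaves no replicate of any group. Values are therefore given between groups with exact intervals that cover counting error only, and tests were run only on differences shared by the 4 libraries. Pax4 itself had 0 UMIs in the beta cells, and the knock-in was not read from the sequence. In every series of 4 values below, the order is WT SCD, HH SCD, WT HFD and HH HFD.

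Mafa is a basic leucine zipper factor that is switched on late in beta cell maturation, binds the insulin promoter and drives genes of glucose-stimulated secretion. Beta cells that lose maturity under metabolic load lower Mafa and glucose transport genes and can switch on genes that are low in healthy beta cells. Gc encodes the vitamin D binding protein and is high in alpha cells, Aldh1a3 encodes a retinaldehyde dehydrogenase widely used as a marker of dedifferentiated beta cells, and Serpina7 encodes thyroxine-binding globulin. In GRCm38, Mafa lies on chromosome 15 (75745490 to 75748228), Gc on chromosome 5 (89417522 to 89457898), Aldh1a3 on chromosome 7 (66390890 to 66427517) and Serpina7 on chromosome X (139079257 to 139085236).

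The Mafa-negative, marker-positive cells were 2.43% of beta cells in WT SCD (95% exact binomial interval 1.81 to 3.19), 1.81% in HH SCD (1.27 to 2.50), 3.30% in WT HFD (2.35 to 4.51) and 10.8% in HH HFD (9.68 to 12.0). The HH HFD interval lay above the other 3, which overlapped each other. The HH share minus the WT share was 7.48 percentage points in HFD (5.85 to 9.01) and -0.62 points in SCD (-1.56 to 0.30). Because Mafa negativity and marker detection both depend on depth, each cell was also thinned to 3000 UMIs, which left out no beta cell. Averaged over all possible thinnings, the shares were then 3.63%, 4.14%, 7.57% and 22.4%. The HH minus WT differences were 14.8 points in HFD (12.5 to 16.9) and 0.50 points in SCD (-0.73 to 1.74), with approximate intervals from the averaged counts. The SCD difference thus changed sign with depth, within an interval that held 0 both times. As a background, 117, 89, 148 and 203 endothelial cells, which should use neither Mafa nor the markers, met the same Mafa and marker conditions in 1.71%, 2.25%, 4.05% and 6.90% of cells, at median depths of 6104 to 7078.5 UMIs. Thinned to the same 3000 UMIs, 0.80%, 0.73%, 1.83% and 3.69% of endothelial cells met them, against the 3.63% to 22.4% of beta cells.

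**Figure D1:**
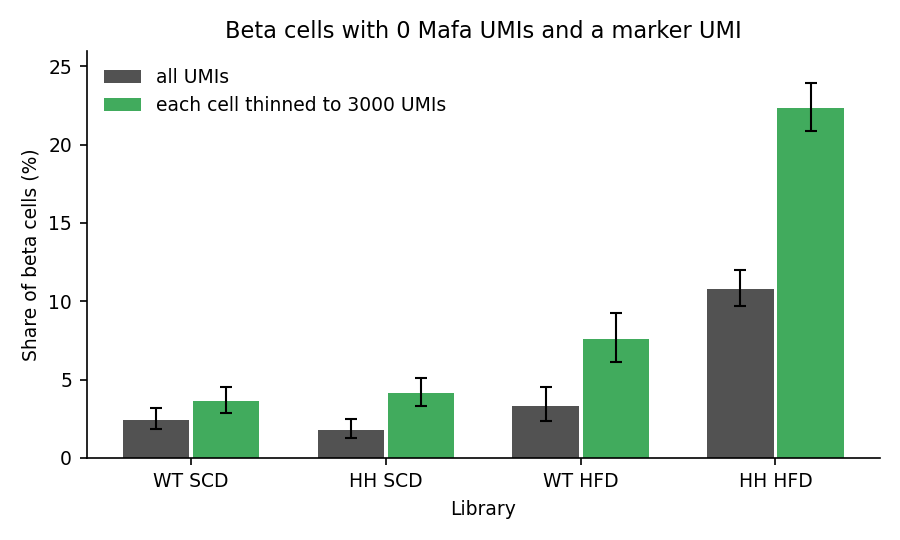
Share of beta cells that were Mafa-negative and marker-positive (percent, y axis) in each library, at full depth and thinned to 3000 UMIs per cell, with 95% binomial intervals as bars. These are exact at full depth and approximate after thinning, where counts were averaged over all possible thinnings. HH HFD stands apart in both, at 10.8% and 22.4%, and the other 3 libraries lie at 1.81% to 3.30% and 3.63% to 7.57%.

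The parts of the rule moved as follows. Beta cells with 0 Mafa UMIs were 4.77%, 4.42%, 4.43% and 12.9% of all beta cells, and those with a marker UMI were 47.5%, 47.1%, 68.3% and 80.3%. Gc was held by 42.6%, 42.7%, 64.5% and 77.2% of beta cells, Aldh1a3 by 2.33%, 3.57%, 3.74% and 12.2%, and Serpina7 by 6.66%, 6.73%, 9.13% and 23.7%. At full depth, a marker was found in 51.0%, 40.9%, 74.5% and 83.9% of Mafa-negative beta cells. In Mafa-positive beta cells these shares were 47.3%, 47.4%, 68.1% and 79.7%. The intervals overlapped in each library, at 79.7 to 87.5 and 78.1 to 81.3 in HH HFD. After thinning, a marker was found in 9.55% of Mafa-negative and 8.42% of Mafa-positive beta cells in WT SCD, a difference of 1.13 points (-1.44 to 3.85). The same difference was 1.03 points in HH SCD (-1.65 to 3.82) and 0.47 points in WT HFD (-3.92 to 4.92), whereas in HH HFD it was 9.38 points (5.85 to 12.8). Thinned shares were averaged over all possible thinnings, so that a cell could count in part as Mafa-negative and in part as Mafa-positive. The intervals treat these parts as separate cells, so they are approximate. They cover counting error only, and the differences between libraries were not tested.

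Most members held the markers at low counts outside HH HFD. The median number of marker UMIs per member was 2, 1, 3 and 5, and the highest was 7, 9, 10 and 52. A single marker UMI was the only one in 23, 19, 13 and 41 members, which is 46.0%, 52.8%, 34.2% and 13.1% of them. At the edge of the rule, 96 beta cells held 0 Mafa UMIs and 1 marker UMI, and just outside it 99 held 1 of each, while the median beta cell held 9, 8.5, 8 and 4 Mafa UMIs. Gc was found in 385 of the 436 members, Serpina7 in 188 and Aldh1a3 in 88. Of the members, 244 held 1 of the 3 genes, 159 held 2 and 33 held all 3. As summed counts scaled to a total of 1000000 (CPM), which the rule itself raised, Gc stood at 59.5, 59.1, 64.6 and 212 CPM in the members, Aldh1a3 at 14.9, 22.3, 16.2 and 16.2 CPM, and Serpina7 at 27.1, 31.5, 31.3 and 67.1 CPM. In Mafa-positive beta cells with a marker, Gc stood at 56.5, 63.4, 82.8 and 171 CPM. Aldh1a3 stood there at 2.39, 3.46, 2.02 and 12.4 CPM, and Serpina7 at 5.88, 5.44, 5.63 and 25.95 CPM. Members thus held more Aldh1a3 and Serpina7 in every library, but more Gc only in WT SCD and HH HFD.

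The rule required at least 5% of UMIs from insulin and under 1% each from 3 other hormones, so hormone content is given as a description. Ins1 and Ins2 gave 46.4%, 48.5%, 48.6% and 52.7% of their UMIs, against 54.4%, 56.2%, 55.2% and 56.3% in reference cells. Iapp, the amylin that is packed with insulin, stood at 52711, 45505, 53022 and 72882 CPM in members against 36100.2, 37917, 39260 and 48078 CPM in reference cells, and the difference did not pass the test (log2 0.31 ± 0.11, adjusted p = 0.118). Nkx6-1, a factor that keeps beta cell identity, stood at 213, 194, 281 and 165 CPM against 229, 213, 252 and 208 CPM and did not pass it either (-0.26 ± 0.09, adjusted p = 0.106). The name given by the markers therefore holds for the 3 genes of the rule, and the cells are called by the rule here. Median depth was 22641, 20582, 28320 and 25754 UMIs in members against 25492, 25546, 28923 and 20581 UMIs in reference cells, so that members were shallower in SCD and deeper in HH HFD. Total UMIs per library ran from 68011082 to 104810105. Pairs of libraries shared 6 to 11 barcodes, at most 0.236% of the smaller library, and no member was among them. Scores for doublets marked 0, 3, 0 and 4 of the members.

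Against reference cells, members held more transcripts of Cd81, Tspan8, Gpx3 and Pyy, among others, and fewer of Cox6a2, Trpm5, Slc2a2, Sytl4 and Ucn3. Counts were summed over cells in each library and compared in edgeR with the library as a block, which gives 4 pairs. Of 11412 genes tested, 376 were higher in members (3.29%) and 347 were lower (3.04%) at an adjusted p under 0.05. An unadjusted edgeR p under 0.05 was reached by 1898 genes, the base for the unadjusted counts of lists below. The 4 sums of members lay entirely above the 4 of reference cells for 455 genes (3.99%) and entirely below for 512 (4.49%). The median log2 difference over all genes was 0.00. Fitted log2 differences are given ± SE, on the TMM scale, whereas CPM are unscaled levels. The SE is the fitted difference divided by the square root of the edgeR F. That test borrows variance across genes, so the SE is not the spread of the 4 pairs, which can be wider.

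Cd81 encodes a tetraspanin of the cell surface and lies on chromosome 7 (143052739 to 143067934, GRCm38). It stood at 246, 162, 169 and 103 CPM in members and at 45.6, 27.7, 45.1 and 33.5 CPM in reference cells. Every library of members lay above every library of reference cells, and the difference was 1.96 ± 0.10 (adjusted p = 1.49e-13). After thinning to 3000 UMIs, a Cd81 UMI was found in 51.8%, 36.9%, 35.6% and 23.3% of members against 11.9%, 7.84%, 10.8% and 9.28% of reference cells, so the difference was spread over many cells and smallest in HH HFD. Tspan8, another tetraspanin, on chromosome 10 (115816832 to 115849893), stood at 77.0, 93.3, 91.9 and 22.6 CPM against 7.36, 9.33, 11.1 and 8.46 CPM. The groups did not overlap (2.63 ± 0.18, adjusted p = 3.34e-11), and the members of HH HFD held the least of it. Gpx3, a secreted glutathione peroxidase on chromosome 11 (54902453 to 54910377), stood at 189, 206, 130 and 121 CPM against 21.6, 26.3, 38.0 and 39.9 CPM (2.20 ± 0.15). It was found in 23.2% to 34.1% of thinned members and in 5.68% to 9.21% of thinned reference cells.

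Sult1d1, a cytosolic sulfotransferase, stood at 77.0, 53.9, 50.5 and 19.2 CPM against 11.8, 7.69, 7.94 and 5.46 CPM (2.34 ± 0.14). Fxyd3, a regulator of the sodium pump, stood at 83.2, 56.5, 38.4 and 17.6 CPM against 12.8, 9.33, 13.6 and 7.01 CPM (1.92 ± 0.17). Members of HH HFD were again the lowest of the members for both genes, while still above every reference sum. The histone gene Hist3h2ba stood at 66.5, 74.9, 37.4 and 11.2 CPM against 9.18, 9.83, 11.5 and 8.28 CPM (1.86 ± 0.23), and its difference was 0.47 within HH HFD alone. Cd44, the hyaluronan receptor, differed by 1.56 ± 0.21 with levels of 53.4, 34.2, 20.2 and 21.8 CPM in members. Ocrl, a phosphoinositide phosphatase, differed by 1.56 ± 0.15 with levels of 34.1, 63.1, 36.3 and 40.0 CPM. For these last 2 genes HH HFD members were not the lowest.

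Pyy, the gut and islet hormone peptide YY, had the largest difference but was concentrated in few cells. It stood at 819, 1243, 885 and 495 CPM in members and at 46.4, 58.6, 93.9 and 108 CPM in reference cells (3.33 ± 0.18, adjusted p = 2.3e-13). The 3 members of each library with most Pyy held 69.7%, 74.9%, 90.6% and 48.8% of it, or 4081 of 6701 UMIs over 12 cells, and 9 of these 12 had at least 0.1% of their UMIs from Ppy. Pyy (102106676 to 102107832) lies 5356 bases from Ppy (102099930 to 102101319) on the same strand of chromosome 11. Without the 3 highest members per library, an alternative chosen after seeing the data and applied to members only, the Pyy difference was 1.82, from 266, 328, 88.3 and 255 CPM in the remaining members, so that WT HFD then lay below its reference cells. After thinning, 28.8%, 33.3%, 28.4% and 25.7% of members held a Pyy UMI against 10.9%, 14.6%, 18.8% and 26.5% of reference cells, so that in HH HFD the share was no higher in members. Rbp4, the retinol-binding protein, stood at 41.1, 59.1, 45.4 and 23.0 CPM against 10.3, 7.80, 12.2 and 8.55 CPM (1.86 ± 0.16), but 3 members per library held 56.8% to 77.8% of it, and without them the call was lost (0.70, adjusted p = 0.0502). The part of islet cells of other kinds in these values was not tested. Cd81, Tspan8, Gpx3, Sult1d1, Fxyd3, Hist3h2ba, Cd44 and Ocrl had differences of 1.51 to 2.39 under the same removal.

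Detection of the higher genes was also counted cell by cell. Of the 5 genes Pyy, Tspan8, Gpx3, Cd81 and Rbp4, which were chosen after their values were seen, 3 or more were detected in 68.0% (53.3 to 80.5), 63.9% (46.2 to 79.2), 47.4% (31.0 to 64.2) and 40.7% (35.2 to 46.4) of members. In reference cells this share was 14.3%, 16.4%, 23.4% and 18.6%. It was also low in Mafa-positive cells with a marker, at 15.0%, 14.2%, 13.2% and 22.1%, and high in Mafa-negative cells without a marker, at 68.8%, 69.2%, 53.8% and 55.0%.

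Among the genes named lower, which had a mean of at least 20 CPM, the lowest fitted difference was that of Cox6a2, a heart and muscle type subunit of cytochrome c oxidase that beta cells also use, on chromosome 7 (128205435 to 128206387). It stood at 30.6, 51.3, 101 and 54.2 CPM in members against 255, 221, 256 and 200 CPM in reference cells, with no overlap (-2.11 ± 0.15, adjusted p = 4.17e-11). After thinning, 6.68% to 18.8% of members held a Cox6a2 UMI against 40.0% to 45.5% of reference cells. Trpm5, a calcium-activated cation channel that supports glucose-stimulated insulin secretion, stood at 34.1, 34.2, 52.5 and 14.2 CPM against 94.9, 96.3, 121 and 76.3 CPM, again with no overlap (-1.90 ± 0.13). Trpm5 (143069153 to 143094642, minus strand) lies 1218 bases from Cd81 on the opposite strand, and these neighbours moved in opposite directions. Zc3h3, a zinc finger protein gene, stood at 14.9, 25.0, 20.2 and 12.8 CPM against 54.1, 64.3, 54.8 and 42.9 CPM (-1.74 ± 0.13). Zc3h3 (75754430 to 75841915) lies 6201 bases from Mafa on the same strand of chromosome 15, on the side of the Mafa promoter, and Mafa is a gene of the rule. Whether some reads assigned to Zc3h3 came from the Mafa region was not tested.

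The other named genes that fell did so by 1.33 to 1.55 on the log2 scale. They were Vps8 (-1.55 ± 0.15), a subunit of an endosomal tethering complex, Mns1 (-1.49 ± 0.13), Tubb3 (-1.45 ± 0.18), a tubulin, Cryba2 (-1.41 ± 0.15), a crystallin, Prss53 (-1.41 ± 0.11), a serine protease, Syndig1l (-1.39 ± 0.12) and Nr4a1 (-1.33 ± 0.13), an orphan nuclear receptor of the immediate early class. Prss53 stood at 108, 135, 151 and 164 CPM in members and at 341, 347, 351 and 326 CPM in reference cells. The Nr4a1 sums overlapped, at 68.3, 61.8, 17.2 and 5.14 CPM against 154, 111, 27.0 and 17.5 CPM, because its level varied more between libraries than between kinds of cell, and without the library block its call was lost (adjusted p = 0.477).

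Among genes of glucose sensing and secretion, lower calls prevailed. Of 24 tested, 10 were lower and 2 higher, beside 3.04% and 3.29% of all genes. Their median log2 difference was -0.28 against 0.00 over all genes. Slc2a2, the glucose transporter GLUT2 on chromosome 3 (28697903 to 28731359), stood at 176, 151, 160 and 95.2 CPM in members against 308, 275, 307 and 197 CPM in reference cells. The 4 pairs gave nearly the same difference, -1.02, -1.13, -1.11 and -1.01, and the fit gave -1.06 ± 0.09 (adjusted p = 2.29e-09). A Slc2a2 UMI was found in 23.7% to 33.4% of thinned members and in 41.3% to 57.7% of thinned reference cells. Ucn3, urocortin 3, a peptide of mature beta cells, stood at 135, 155, 228 and 162 CPM against 275, 263, 266 and 227 CPM (-0.74 ± 0.11), with differences of -1.25 and -1.03 in SCD and of -0.39 and -0.45 in HFD. G6pc2, the islet glucose-6-phosphatase, stood at 300.3, 251, 477 and 450.0 CPM against 508, 469, 673 and 505 CPM (-0.70 ± 0.12), and differed by -0.13 in HH HFD. Without the library block the G6pc2 call was lost (adjusted p = 0.21).

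The incretin receptor gene Glp1r fell by 0.66 ± 0.09, the granule zinc transporter gene Slc30a8 by 0.59 ± 0.09, and Sytl4, the granuphilin that docks insulin granules, by 1.09 ± 0.11. Ffar1, the fatty acid receptor, and Gipr were also lower, by 0.45 and 0.43. The 2 that were higher were Cltrn (1.04 ± 0.10), collectrin, at 821, 859.5, 556 and 514 CPM against 291, 284, 288 and 307 CPM, and Itpr1 (1.04 ± 0.15), a calcium release channel. Abcc8, the sulfonylurea receptor of the potassium channel, did not pass the test (0.09 ± 0.09, adjusted p = 0.705). Prlr, the prolactin receptor gene, was lower (-0.78 ± 0.10), at 266, 290.5, 275 and 231 CPM against 469, 469, 393 and 332 CPM.

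Transcription factors of beta cell identity other than Mafa had a median difference near 0, though several were called. Of 17 tested, 1 was higher and 2 were lower, with a median of 0.06, beside 3.29% higher and 3.04% lower over all genes. An unadjusted edgeR p under 0.05 was reached by 8 of them, beside 1898 of 11412 genes in all, and DESeq2 called 0. Pdx1, the factor that binds the insulin promoter with Mafa, stood at 83.2, 67.0, 99.9 and 69.2 CPM against 85.0, 72.4, 111 and 97.5 CPM, and its ranges overlapped (-0.36 ± 0.09, adjusted p = 0.0148). Neurod1 stood at 141, 121, 143 and 109 CPM against 170.5, 142, 155 and 120.0 CPM (-0.32 ± 0.09, adjusted p = 0.0349). The Pdx1 call was lost under 5 alternatives and the Neurod1 call under 7. St18 was the 1 factor called higher (0.35 ± 0.10).

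Genes of prohormone processing and the secretory granule moved both ways, with 5 of 16 higher, 2 lower and a median of 0.27. Over all genes 3.29% were higher and 3.04% lower. Chga, chromogranin A, stood at 11477, 11230.3, 11983 and 9048 CPM in members against 6466, 5810, 7682 and 5641 CPM in reference cells (0.62 ± 0.10), without overlap. Chgb, chromogranin B, stood at 1317, 1234, 1051 and 1204 CPM against 592, 585, 683 and 815 CPM (0.70 ± 0.09), also without overlap. Pam, Scg5 and Scgn were higher by 0.37 to 0.51. Ero1lb, an oxidoreductase that folds proinsulin, was lower (-0.96 ± 0.10), at 475, 476, 553 and 572 CPM against 929, 923, 911 and 886 CPM, as was Pcsk1, the proinsulin convertase (-0.37 ± 0.09).

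The list of immature and dedifferentiation genes, which left out the 3 markers, had 5 of 12 tested genes higher, 3 lower and a median of 0.54. Beside it, 3.29% of all genes were higher and 3.04% lower. The higher genes included Tspan8, Cd81, Rbp4 and Gast. Gast, gastrin, rested on 5, 11, 3 and 26 UMIs (2.62 ± 0.49). Npy, a neuropeptide, was lower, with 0, 0, 1.01 and 1.76 CPM in members against 23.8, 22.6, 33.7 and 14.2 CPM. It was found in only 2.74% to 5.70% of reference cells, so few cells carried it. Pappa2, a protease of insulin-like growth factor binding proteins, was lower (-0.68 ± 0.15), and so was Sox4 (-0.60 ± 0.12). Of 22 genes normally kept silent in beta cells, 5 were abundant enough to test and 1, Zfp36l1, was higher, with no UMI in HH SCD members.

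Among stress and growth lists, the immediate early and heat shock genes were called most often. Of 18 immediate early and heat shock genes, 12 were lower and 0 higher, with a median of -0.58. Beside this and the lists that follow, 3.04% of all genes were lower and 3.29% higher. Fos stood at 406, 669, 661 and 412 CPM against 841, 1139, 778 and 633 CPM (-0.81 ± 0.11), Jun fell by 0.63 ± 0.10, Hspa1a by 0.90 ± 0.13 and Hspa1b by 0.59 ± 0.12. These genes respond to cell dissociation, and the part of handling was not tested. Of 22 endoplasmic reticulum chaperones and targets of ATF6 or XBP1, 1 (Calr) was lower and 0 were higher, with a median of -0.04. Of 18 ATF4 and CHOP targets, Atf3, Ddit3 and Atf5 were lower and 0 were higher, and DESeq2 called 3 of the list. Their median was -0.22, with medians of -0.32, -0.49, -0.11 and -0.08 by library. None of 77 ribosomal protein genes passed the edgeR test, and DESeq2 also called 0. An unadjusted edgeR p under 0.05 was found for 17 of them, beside 1898 of 11412 genes in all. Nuclear genes of the respiratory chain had 2 of 78 higher and 2 lower, including Cox6a2. Of 13 mitochondrially encoded genes 1 was lower, with a median of -0.20, and of 13 cell cycle genes Ccnd2 was lower. None of 17 interferon response genes passed, with 5 at an unadjusted p under 0.05 and 0 by DESeq2. Gpx3 and Prdx1 were the 2 higher of 15 metallothionein and antioxidant genes. Of 8 prolactin response genes, Tnfrsf11b was higher and Prlr lower. Of 4 retinoid pathway genes tested, 1 was higher.

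Markers of other cell types were set beside these results. The 6 delta and PP cell markers summed to 524 to 1309 CPM in members and 62.3 to 123 CPM in reference cells, nearly all of it Pyy, with Ghsr at 0 in members. Ppy, held below 1% by the rule, stood at 718, 775, 369 and 315 CPM in members and at 120.2, 180.5, 173 and 313 CPM in reference cells, so that it was level in HH HFD. The 9 alpha cell markers summed to 1114 to 3185 CPM against 1241 to 1550 CPM, mostly Ttr, and of 6 tested 3 were higher, Smarca1 and Irx2 among them, and 1, Slc7a2, was lower. The 10 acinar and ductal markers summed to 80.8 to 324 CPM against 80.8 to 96.5 CPM with Pnlip, Reg1 and Cftr at 0 in members. Spp1 gave most of the highest of these sums, at 139, 14.5, 2.02 and 28.9 CPM. The 6 endothelial markers summed to 28.0, 3.94, 4.04 and 121 CPM in members against 31.9, 7.35, 39.2 and 20.4 CPM in reference cells, so that only HH HFD was higher. Of 5 tested, 0 passed the edgeR test, 4 had an unadjusted p under 0.05 and DESeq2 called 0. The 6 stromal markers summed to 0, 0, 95.9 and 50.6 CPM against 0.995 to 14.0 CPM, with Rgs5 the 1 gene tested (3.08 ± 0.31) and absent from both SCD sums of members. The 8 immune markers summed to 52.5 to 87.5 CPM against 62.8 to 92.7 CPM, with Cd3e at 0 in members and Cd74 lower. The part of such RNA in the differences above was not tested beyond the removal of the 3 highest members.

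A direct comparison between both Mafa-negative kinds of beta cell called few genes. There were 48, 52, 13 and 60 Mafa-negative, marker-negative beta cells, at median depths of 18410, 16908, 20184 and 15421 UMIs. Of 6360 genes tested, 8 were higher in members (0.126%) and 64 were lower (1.01%), with 521 at an unadjusted p under 0.05. Without HH HFD only 1 was called higher and 13 lower. Slc2a2 did not pass the test (0.23, adjusted p = 0.71), with 130, 145, 187 and 84.0 CPM in the marker-negative cells, and neither did Cd81 (-0.49, adjusted p = 0.0574) or Tspan8 (0.11, adjusted p = 0.953). None of 22 secretion genes and none of 15 transcription factors passed, with 6 and 4 at an unadjusted p under 0.05. These fits rested on fewer cells than the first comparison, and a p above the threshold does not show equal levels.

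The genes named higher in members than in Mafa-negative, marker-negative cells were Gpx2 (1.13), a glutathione peroxidase, Pwwp3b (1.05), Pdyn (1.01), the opioid precursor prodynorphin, Hgfac (1.0) and Mthfd2 (0.77), a mitochondrial folate enzyme. All 5 calls were lost without HH HFD and also without the library block. Those of Pwwp3b, Hgfac and Mthfd2 were lost when cells were matched on UMIs, and that of Hgfac without any 1 library. Those named lower included Plpp3 (-2.78), Rgcc (-2.69), Rbp4 (-2.34) and Egfl7 (-2.25). The Plpp3 and Rgcc calls were lost when cells were matched on UMIs and without the library block, and the Egfl7 call without the block. Plpp3, Rgcc and Egfl7 are high in endothelial cells, and the 6 endothelial markers summed to 910, 507, 3.82 and 214 CPM in the marker-negative cells. The 6 stromal markers summed to 217, 222, 3.82 and 410 CPM in these cells, and the 8 immune markers to 102, 665, 122 and 79.6 CPM. The part of such RNA in their values was not tested. Rbp4 stood at 321, 369, 279 and 72.0 CPM in the marker-negative cells and exceeded the members in every library.

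Against Mafa-positive beta cells with a marker, of which there were 926, 902, 748 and 2009, members again held more Pyy, Tspan8 and Gpx3 and less Cox6a2, Trpm5 and Slc2a2. The members were the same cells as in the first comparison, so both share their values. Of 12158 genes, 361 were higher in members (2.97%) and 331 lower (2.72%). The genes named higher were Pyy (3.48), Tspan8 (2.58), Gpx3 (2.36), Rbp4 (2.19) and Hist3h2ba (2.15), and those named lower were Cox6a2 (-1.95), Zc3h3 (-1.67), Trpm5 (-1.60), Ttc28 (-1.29) and Vps8 (-1.29). Slc2a2 stood at 296, 272, 309 and 155 CPM in these Mafa-positive cells and was lower in members (-0.99). Of 24 secretion genes 8 were lower and 2 higher, and of 13 immature and dedifferentiation genes 7 were higher and 2 lower. Of 16 cell cycle genes 7 were lower and 0 higher. All 5 endothelial markers tested were higher (median 1.56), with medians of 0.22, -1.95, -0.70 and 2.10 by library. The stromal gene Rgs5 was higher as well (2.90). The part of other cell types in these values was not tested.

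**Figure D2:**
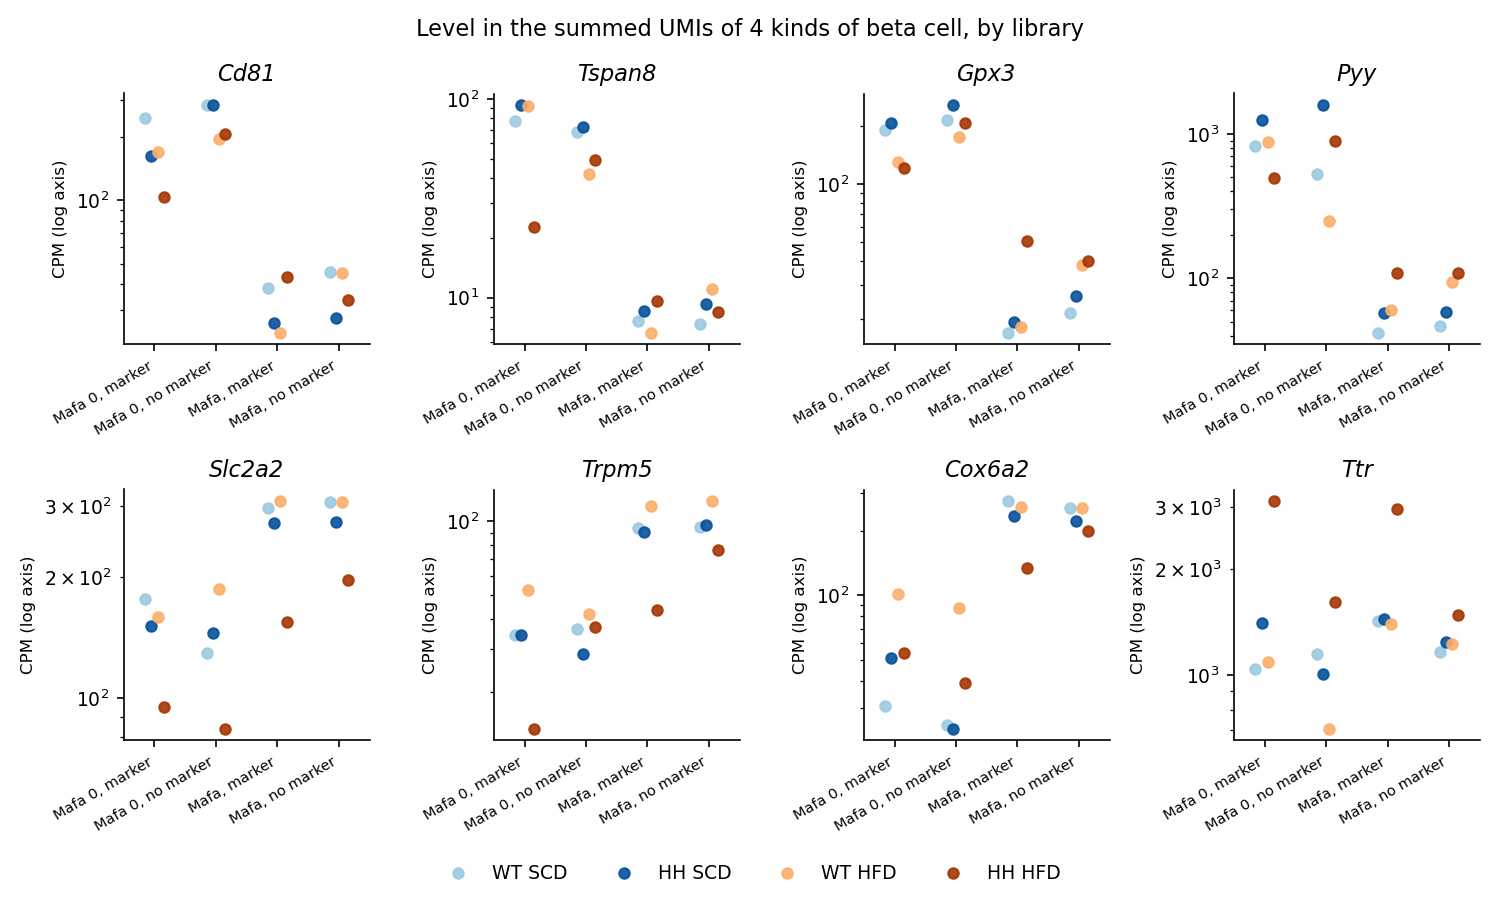
Level (CPM, log axis) of Cd81, Tspan8, Gpx3, Pyy, Slc2a2, Trpm5, Cox6a2 and Ttr in the 4 kinds of beta cell, 1 point per library. For all but Ttr, members and Mafa-negative, marker-negative cells of a library lie on the same side of both Mafa-positive kinds of that library, and Ttr reaches 3118 CPM in HH HFD members.

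Ttr, transthyretin, an alpha cell gene that carries thyroxine and retinol-binding protein, did not follow that division. It stood at 1043, 1404, 1094 and 3118 CPM in members and at 1168, 1242, 1228 and 1478 CPM in reference cells. The difference was -0.38, -0.09, -0.33 and 1.11 by library, so only HH HFD was higher, and the fit over 4 libraries gave 0.08 ± 0.15 (adjusted p = 0.895). Dapl1, a death-associated protein-like gene, behaved alike, at 51.7, 68.3, 79.8 and 478 CPM against 54.0, 85.4, 95.2 and 145 CPM, with 1.76 in HH HFD and 0.40 ± 0.23 in the fit (adjusted p = 0.414). Car15, a carbonic anhydrase, stood at 167, 117, 136 and 13.8 CPM against 24.9, 16.1, 33.1 and 19.5 CPM, with -0.46 in HH HFD. It rested on few cells, since 3 members per library held 89.5%, 84.3%, 77.8% and 32.7% of its UMIs and the median member held 0 in every library. Without those 3 cells, an alternative chosen after seeing the data, the members stood at 18.6, 19.9, 33.1 and 9.36 CPM. These 3 genes are named because their HH HFD value stands apart or because the rule for HH against WT names them.

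The members of HH were set against those of WT within each diet. With 1 library per group, ratios of HH to WT CPM carry conditional binomial intervals and no test. Among 1429 genes of at least 50 CPM in HFD, 55 had a log2 ratio of 0.5 or more (3.85%) and 269 of -0.5 or less (18.8%), with a median of -0.17. Scaled by median-of-ratios size factors, which moved that median to -0.00, the counts were 123 and 133, so the excess of lower genes depended on the scaling. In reference cells 10 genes were past the same limit upwards (0.7%) and 19 downwards (1.33%), among 351 and 511 cells in place of 38 and 312. In SCD, 50 (2.92%) and 86 (5.02%) of 1713 genes were past the limits in members and 3 (0.175%) and 13 (0.759%) in reference cells. The smaller number of members widens their ratios, and the difference between the kinds of cell was not tested.

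Dapl1 was highest by this ratio in HFD, rising from 79.8 CPM in WT members to 478 CPM in HH members (2.58, interval 2.26 to 2.92), against 0.61 in reference cells. Pappa2 stood at 18.2 and 95.5 CPM (2.39, 1.72 to 3.16, against 1.03), and Ttr at 1094 and 3118 CPM (1.51, 1.42 to 1.60, against 0.27). Fkbp11, a prolyl isomerase of the secretory pathway, stood at 161 and 417 CPM (1.37, 1.14 to 1.61), and Nucb2, the precursor of nesfatin, at 154 and 397 CPM (1.36, 1.13 to 1.61). For each of these 5 the ratio in reference cells was also above 0 but smaller. The lowest was Car15, at 136 CPM in WT members and 13.8 CPM in HH members (-3.30, -3.68 to -2.93), which became -1.82 (-2.45 to -1.16) without the 3 highest members of each library. With 3 members left out in WT and 25 in HH, the same share of each, it was -2.80. The metallothionein Mt2 stood at 98.9 and 20.4 CPM (-2.27), Mt1 at 451 and 110 CPM (-2.03), and the heat shock genes Hspa1a at 227 and 50.7 CPM (-2.16) and Hspa1b at 90.9 and 22.1 CPM (-2.04), with reference-cell ratios of -1.18, -0.88, -1.50 and -1.71. In SCD members, Dapl1 had a ratio of 0.40, Ttr of 0.43 and Car15 of -0.52.

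**Figure D3:**
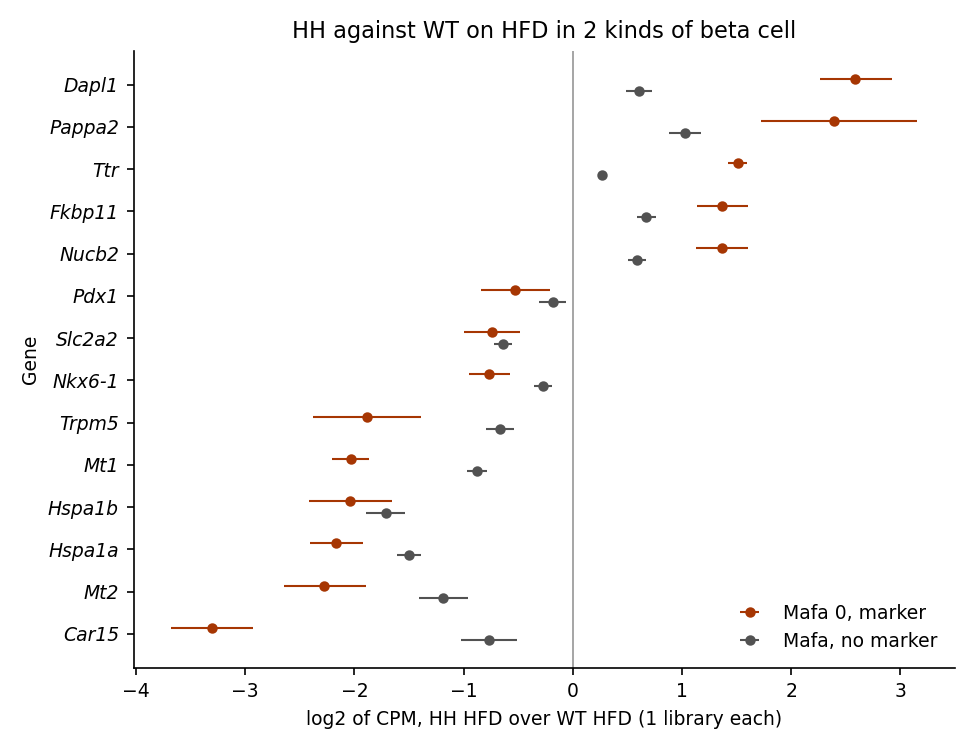
Log2 ratio of HH to WT CPM under HFD (x axis) in members and in reference cells for 14 genes, with 95% intervals that cover counting error only. Dapl1 lies highest at 2.58 in members and Car15 lowest at -3.30. The Car15 ratio is -1.82 without the 3 highest members of each library and -2.80 without the same share of members. Each of the genes from Dapl1 to Nucb2 lies further from 0 in members than in reference cells.

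Ratios of listed genes in HFD were also counted, from a mean of 20 CPM. Beside them, 18.8% of the 1429 genes of at least 50 CPM were past -0.5 in members and 3.85% past 0.5. The lower share depended on the scaling, as given above, so the list counts do too. Genes of secretion came first. Of 21 with enough counts, 10 had a ratio of -0.5 or less and 1 of 0.5 or more, with a median of -0.50 in members and -0.22 in reference cells. Of 11 mitochondrially encoded genes 7 were past -0.5, with a median of -0.59 in members and -0.13 in reference cells, and the median mitochondrial share per member was 5.39% in WT HFD and 3.73% in HH HFD, so that these values moved with the ratios, and their part in them was not tested. Trpm5 reached 52.5 CPM in WT members and 14.2 CPM in HH members (-1.89, -2.38 to -1.39), against -0.67 in reference cells. Slc2a2 gave -0.74 (-0.99 to -0.49) against -0.64, and Ucn3 gave -0.50. Of 12 transcription factors 4 were past -0.5 and 0 past 0.5, among them Nkx6-1 at -0.77 (-0.95 to -0.57) and Pdx1 at -0.53 (-0.84 to -0.21), against -0.28 and -0.19 in reference cells. Of 17 immediate early and heat shock genes 13 were past -0.5. Of 22 endoplasmic reticulum chaperones 6 were past 0.5 and 3 past -0.5, with a median of 0.13 in members and 0.18 in reference cells. Of the genes that set members apart from reference cells, Tspan8 gave -2.02 and Cd81 -0.71, so that HH HFD members held less of them than WT HFD members, and Gpx3 gave -0.11. Without the 3 highest members of each library, Tspan8 gave -1.63, Cd81 -0.58, Trpm5 -1.62 and Slc2a2 -0.48, while Gpx3 turned to 0.50 (0.16 to 0.87). That removal took 43.4% of Gpx3 UMIs in WT and 8.42% in HH. With the same share of members left out of both libraries, Gpx3 gave -0.094 (-0.449 to 0.279). Tspan8 then gave -2.79, Cd81 -1.001, Trpm5 -2.27 and Slc2a2 -0.798, so the change of direction of Gpx3 depended on the removal.

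The 312 members of HH HFD were split by their marker UMIs. There were 41 with 1 marker UMI, 101 with 2 to 4 and 170 with 5 or more, at median depths of 17081, 22146 and 27958 UMIs, and each set was placed beside the 461, 713 and 835 Mafa-positive beta cells of the same library with as many marker UMIs. The markers chose these sets, so levels are described without a test. Ttr rose from 1733 over 2327 to 3719 CPM in members and from 1881 over 2302 to 3845 CPM in Mafa-positive cells. Dapl1 rose from 193 over 335 to 592 CPM in members and from 165 over 230 to 481 CPM in Mafa-positive cells. Trpm5 fell from 31.9 over 18.6 to 9.27 CPM in members and from 69.1 over 54.4 to 25.2 CPM in Mafa-positive cells. These 3 genes thus followed the marker count in cells with and without Mafa.

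Members and Mafa-positive cells were then compared at the same marker count. With 5 or more marker UMIs, Slc2a2 was lower in members than in Mafa-positive cells (log2 ratio -0.71, interval -0.86 to -0.55), at 81.4 and 133 CPM, and Trpm5 likewise (-1.44, -1.91 to -1.01). Cd81 was higher (1.05, 0.89 to 1.21), at 93.3 and 45.1 CPM, as were Tspan8 (1.06), Gpx3 (0.96) and Pyy (1.91), and Cox6a2 was lower (-1.33). In the same set, Ttr (-0.05, -0.07 to -0.03), Fkbp11 (0.04, -0.03 to 0.10) and Nucb2 (0.06, -0.01 to 0.13) were nearly level between members and Mafa-positive cells. With 2 to 4 marker UMIs, however, Fkbp11 stood at 369 CPM in members (345 to 394) and 313 CPM in Mafa-positive cells (305 to 321), and Nucb2 at 350 CPM (326 to 374) and 297 CPM (289 to 305). Pdx1 stood at 99.6, 65.5 and 66.4 CPM in members and at 86.1, 86.0 and 78.6 CPM in Mafa-positive cells from 1 to 5 or more marker UMIs, so that its direction was not the same in the 3 sets. Among members, Cd81 stood at 177, 99.3 and 93.3 CPM and Rbp4 at 58.4, 46.5 and 5.98 CPM from 1 to 5 or more marker UMIs, opposite to Ttr and Dapl1. Depth rose along the same sets.

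As a share of all beta cell transcripts of a library, the members gave 25.0%, 17.8%, 26.8% and 34.0% of Pyy UMIs and 10.2%, 7.04%, 13.8% and 22.6% of Cd81 UMIs. They gave 1.23%, 0.81%, 1.51% and 6.84% of Slc2a2 UMIs, while holding 2.07%, 1.44%, 2.88% and 11.1% of all UMIs of beta cells.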

How the data were processed

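Islet cells were profiled with droplet-based 3′ single-cell RNA-seq (10x Genomics, v3.1 chemistry) in 4 libraries, 1 per group. Per the submitters' processing notes the authors used Cell Ranger 6.0 and the mm10 genome, and they deposited filtered matrices of UMI counts per gene and barcode, 4665 to 7123 barcodes per library. The annotation was not given in the sources used here, and gene positions are from GENCODE M21, which may differ from it. The members, lists and rules for naming genes were chosen with earlier results of these data known. Cells were filtered as stated in the report. Doublet scores came from Scrublet in scanpy 1.11.5. Its automatic threshold marked only 7 to 46 barcodes per library, so the highest scores up to an expected 0.8% per 1000 cells were taken.

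Raw counts were summed per library and kind of beta cell and compared in edgeR 4.0.16 (quasi-likelihood, TMM, filterByExpr, library as block, R 4.3.3) with Benjamini-Hochberg adjustment. The 9 genes of the rule were given as values only. The library pairs the sums by design, since both kinds of cell come from the same pool. The groups differ, so each test concerns a difference shared by 4 unlike libraries. In simulated counts of 11224 genes for the comparison with reference cells, 74% of changes of 0.5 (log2) and 100% of changes of 1 were recovered, with 3.33% of calls false. Changes were placed only in genes with a mean of at least 20 CPM, with counts drawn at the fitted dispersion. Recovery in genes below 20 CPM was not measured. Unscaled CPM of members exceeded those of reference cells by a median of 0.23, 0.25, 0.17 and -0.01 (log2), which TMM removed. Named genes were the 10 highest and 10 lowest differences (5 and 5 in later comparisons) with an adjusted p under 0.05, one sign in 4 libraries and a mean of at least 20 CPM. For HH against WT they were the 5 highest and 5 lowest with at least 50 CPM and intervals that did not overlap. Listed genes were added, and genes named outside these rules, such as Dapl1 against reference cells, were chosen after their values were seen. Intervals were exact Clopper-Pearson, Poisson or conditional binomial, at 95%. For thinned cells they were computed from counts averaged over all possible thinnings and are approximate. DESeq2 (pydeseq2 0.5.4), other scalings, filters, thresholds and cell sets, UMI matching, no block and leaving out each library were tried as alternatives. A few listed genes are not reported here.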

Additional observations from a re-analysis of the deposited data

Results flagged for a closer look

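For 5 genes the ratio of HH to WT within the members lay above 0 in SCD and below 0 in HFD, each with an interval that left out 0. No test of the diets against each other was run, so this difference was not tested, diet and age cannot be told apart, and each ratio rests on 1 library per group. Pyy gave 0.60 (0.47 to 0.73) in SCD and -0.84 (-0.95 to -0.73) in HFD, and 3 cells per library held 48.8% to 90.6% of its UMIs. Without those 3 cells, an alternative chosen after seeing the data, the Pyy ratio in HFD turned to 1.53 (1.21 to 1.87), and with the same share of members left out of both libraries it was -0.33 (-0.67 to 0.02). Its direction in HFD thus rests on few cells. Pdyn gave 0.53 (0.07 to 0.996) and -0.57 (-0.85 to -0.29), where 3 cells held 52.3% of its UMIs in WT and 19.5% in HH. Its HFD ratio was 0.055 (-0.33 to 0.46) without the 3 highest cells and -0.78 (-1.18 to -0.35) without the same share of cells. The immediate early genes gave 0.72 (0.54 to 0.90) and -0.68 (-0.80 to -0.56) for Fos, and 0.53 (0.38 to 0.67) and -1.34 (-1.50 to -1.18) for Fosb. Dusp1, a phosphatase of the same response, gave 0.73 (0.14 to 1.31) and -0.79 (-1.05 to -0.52). In reference cells under HFD the ratios were 0.21 for Pyy, 0.35 for Pdyn, -0.30 for Fos, -0.37 for Fosb and -0.34 for Dusp1. Under both removals Fos, Fosb and Dusp1 kept their directions, from 0.55 to 1.06 in SCD and from -1.54 to -0.43 in HFD.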

How the results depend on the processing

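The shares of beta cells in the order used above were 3.63%, 4.14%, 7.57% and 22.4% thinned to 3000 UMIs, 3.22%, 3.23%, 6.0% and 21.1% thinned to 10000, 1.31%, 0.854%, 2.17% and 9.37% with at least 2 marker UMIs, and 1.22%, 1.06%, 1.65% and 6.02% by Aldh1a3 or Serpina7 only. HH minus WT was then 0.50 points in SCD and 14.8 in HFD (3000), 15.1 in HFD (10000), and 4.36 in HFD without Gc. Against reference cells, 376 higher and 347 lower genes became 219 and 189 by DESeq2, 166 and 198 matched on UMIs, 87 and 129 at a mean of 50 CPM (fewer genes tested), 112 and 109 without the library block, 244 and 265 by Aldh1a3 or Serpina7 only, 241 and 265 with other hormones under 0.1%, and 289 and 428 scaled without Ins1, Ins2, Iapp and mitochondrial genes. Leaving out 1 library gave 230 to 324 and 210 to 302, lowest without WT SCD. Ttr went from 0.08 to -0.10 by Aldh1a3 or Serpina7 only and ranged from -0.27, without HH HFD, to 0.23. Of the values of named genes under alternatives, 438 kept direction and call, 20 lost the call, and the 2 of Ttr turned.

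Against Mafa-negative, marker-negative cells, 8 higher and 64 lower became 5 and 19 matched, 52 and 284 without the filter, and 0 and 2 without the block (edgeR, 299 genes at an unadjusted p under 0.05), with 1 to 13 and 13 to 129 without 1 library (lowest without HH HFD, highest without WT HFD). Of the values of the 10 genes named there, 52 kept direction and call and 25 lost the call. Against Mafa-positive, marker-positive cells, 361 and 331 became 115 and 161 matched, 57 and 47 without the block, and 427 and 568 without the filter, with 167 to 408 and 166 to 448 without 1 library (lowest without WT SCD). List medians moved for secretion (-0.37 at 50 CPM), genes kept silent in beta cells (1.25 to -0.092 by Aldh1a3 or Serpina7 only, 0.48 with 2 marker UMIs, 0.43 with other hormones under 0.1%, 0.38 to 1.34 without 1 library), chaperones (0.047 matched), prolactin response (-0.30 at 50 CPM), alpha markers (0.79 to 0.16 matched, -0.26 at 50 CPM, 0.42 from per-cell CPM, 0.34 to 0.91 without 1 library) and endothelial markers (1.13 to -1.18 by DESeq2, -1.92 to 1.44 without 1 library). The lowest of each range was without HH HFD. For HH against WT in members, genes past 0.5 and -0.5 in SCD were 122 and 163 with 2 marker UMIs, and in HFD 120 and 140 without Ins1, Ins2, Iapp and mitochondrial genes, and 123 and 133 by median of ratios. Under these 2 scalings HFD medians were 0.36 and 0.37 for granule genes (0.093 from per-cell CPM), 0.39 and 0.40 for ribosomal proteins, and -0.42 and -0.42 for mitochondrial genes (-0.51, and 0.094 in SCD, with 2 marker UMIs). Without the 3 highest members of each library, added after seeing the data, HH against WT in HFD turned to 1.53 for Pyy and 0.055 for Pdyn. With the same share of members left out of both libraries, these ratios were -0.33 and -0.78. Except where the construction shows it, the cause was not tested. The 36 to 50 members outside HH HFD limit the depth of genes under 20 CPM.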
